A study of Rattus norvegicus with 3 samples.

Results

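The cytosolic ribosomal protein genes are described here as they were measured in 3 rat muscles. The genes were chosen by name: every rat symbol that begins with Rpl or Rps followed by a digit, with Rplp0, Rplp1, Rplp2 and Rpsa, and without the S6 kinase genes, Rpl3 and Rpl3l. Symbols were reached through the RefSeq accession that each probe carries, and 79 of the 15168 named genes on the array met the rule. They comprised 40 core genes of the large subunit, 3 of the stalk, 29 core genes of the small subunit, 2 paralogs (Rpl22l1 and Rps4y2) and 5 genes with symbols outside these lists (Rpl27l2, Rpl36al1, Rpl37l1, Rpl39l1 and Rps12l4). Older RefSeq names of Rpl36al1, Rpl37l1 and Rpl39l1 are Rpl36al, Rpl37 and Rpl39l. Rpl26, Rps9 and Rps27l were not reached in this way and were not analysed here.

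The ribosome is the particle that translates mRNA into protein. Its large subunit holds the peptidyl transferase centre, its small subunit decodes the mRNA, and the stalk of the large subunit recruits translation factors. Ribosomal protein mRNAs of mammals begin with a C followed by a run of pyrimidines, the 5' terminal oligopyrimidine (TOP) motif, through which the mTORC1 pathway controls their translation. In skeletal muscle the amount of ribosomes is one determinant of how much protein the tissue can make, and it is much studied in atrophy and growth.

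The study compared a denervated slow muscle and a normal fast muscle with the normal slow muscle, using 1 one-colour (Cy3) Agilent expression array for each. The groups were denervated soleus, taken 28 days after about 5 mm of the left sciatic nerve was cut out at gluteal level; normal plantaris, a mainly fast muscle; and normal soleus, a mainly slow muscle. All came from male rats of 12 weeks, of the strain background written Wistar Honnover, and the normal rats had no treatment. The sources used here do not say how many animals gave RNA to an array. The normal soleus array is titled only "Post" and was placed by its source name.

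With 1 array per group there is no measure of the spread between animals, so no difference below has a test. Each fold is a difference of log2 signals after the 75th percentile of all non-control spots was subtracted from each array. Its error is the scanner software's signal error, about ± 0.20 log2 units for the difference of a pair of arrays and larger for dim probes. This error covers neither animals nor hybridisations. A difference of 1 log2 unit (2-fold) or of 0.5 log2 units is used as a rule of size only. The arrays of plantaris and normal soleus shared 1 slide and 1 scan, whereas that of denervated soleus had another slide and scan, so slide, scan and denervation cannot be told apart.

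The start sites of 9 of these genes are printed to show how far the pyrimidine run is found at annotated starts. They are 2 stalk genes and genes at the ends of the comparisons below. In 3 of them (Rpl22l1, Rps12 and Rpsa) no such run begins within 10 bases of the start. Rpsa has one further upstream, at the first base printed. Each is 30 bases of the RefSeq promoter table on build GRCr8, written 5' to 3' on the gene's strand, with 15 bases before the annotated start and 15 from it on. Capitals mark the longest run of C and T that begins with a C within 10 bases of the start and holds at least 4 further pyrimidines. A sequence without capitals has no such run. The limit of 10 bases cuts the marked run in Rps2 and Rps6, where the lower-case pyrimidines just before the capitals belong to the same stretch. The stalk genes come first, the next 4 belong to genes among the ends of the comparison of denervated with normal soleus, and the last 3 were lowest in plantaris.
Rplp0, chr12:46718376-46718405, minus strand: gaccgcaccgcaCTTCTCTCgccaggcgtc
Rplp1, chr8:71290858-71290887, minus strand: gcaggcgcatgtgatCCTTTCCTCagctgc
Rps2, chr10:14251833-14251862, plus strand: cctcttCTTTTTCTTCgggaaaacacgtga
Rps12, chr1:23500060-23500089, plus strand: gcacagaagcccagcagagcgcttaaatac
Rpl12, chr3:36661925-36661954, plus strand: ggagcaacatccgtCTTTTCggctttcggt
Rpl22l1, chr2:113683181-113683210, plus strand: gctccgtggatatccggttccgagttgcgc
Rpsa, chr8:128728864-128728893, plus strand: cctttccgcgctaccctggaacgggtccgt
Rps27, chr2:177964592-177964621, minus strand: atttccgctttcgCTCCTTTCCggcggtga
Rps6, chr5:106420526-106420555, minus strand: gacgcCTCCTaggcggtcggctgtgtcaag

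The promoter table held 64 of the 79 genes. A C at the annotated start followed by at least 4 pyrimidines stood in 23 of these 64 (35.9%), against 881 of all 33469 rat promoters in the table (2.63%) and 2 of 54 mitochondrial ribosomal protein promoters (3.7%). A run of this kind beginning within 10 bases of the start was found in 47 of the 64 (73.4%), against 28.9% of all promoters. Within the 300 bases of the table, searched on both strands, CTTTCC stood in 32 of the 64 ribosomal protein promoters and in 26.4% of all promoters. CTTCCGG, the letters of an ETS-type site, stood in 29.7% of the ribosomal protein promoters, 8.75% of all and 13.1% of those of genes on the array. It also stood in 35.2% of the mitochondrial ribosomal protein promoters, where CTTTCC stood in 31.5%. GGGCGG stood in 56.2% of the ribosomal protein promoters, 33.1% of all and 49.1% of those of genes on the array. These counts describe letters at annotated starts and say nothing of which start was used in these muscles.

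Ribosomal protein mRNAs gave bright signals in all 3 muscles. Of the 79 genes, 76 were well above background on every array and 77 on each array taken singly. Rpl27l2 was not well above background on any array. In processed signal, a linear intensity, the median over the 79 genes was 109223 in denervated soleus, 60470 in normal plantaris and 80874 in normal soleus. The 79 probes together held 18.5% of the summed signal of all named genes in denervated soleus, 11.6% in plantaris and 13.9% in normal soleus, a share that multiplying an array by a constant does not change, though quantile normalization and loess would. Before scaling, 74 of the 76 genes ran in 1 order, brightest in denervated soleus and dimmest in plantaris. The arrays as wholes ran in the same order: the 75th percentile was 0.43 log2 units higher on the denervated array and 0.28 lower (-0.28) on the plantaris array than on the normal soleus array. In whole muscle, a change in the number of cells of a type and a change in RNA per cell cannot be told apart.

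**Figure D1:**
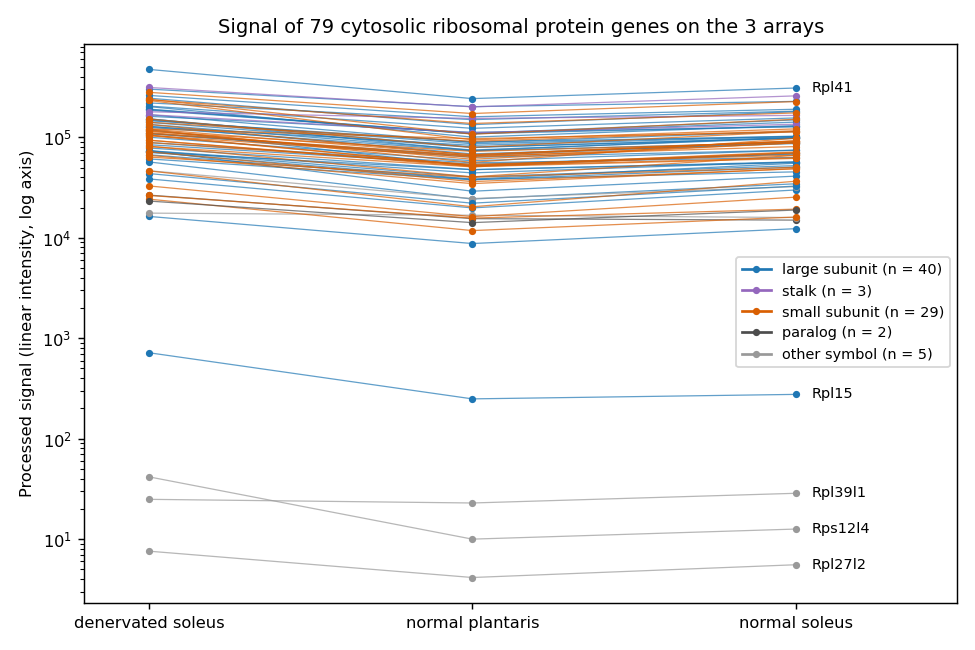
Processed signal (linear intensity on a log axis) of the 79 genes on the array of each muscle, 1 line per gene, coloured by role. Lines run nearly parallel, with denervated soleus highest and plantaris lowest for 74 of the 76 genes well above background on all arrays; the named lines below 1000 are the dim probes.

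After scaling to the 75th percentile, the family as a whole stood level in denervated and normal soleus. All differences in this and the next paragraphs are on that scale; cyclic loess and quantile normalization, described further on, raised the family's median in denervated soleus to 0.46 and 0.56. Over the 78 genes measured, the median log2 difference was 0.00, with quartiles at -0.09 and 0.13, and 39 lay above 0, against a median of 0.03 and quartiles of -0.52 and 0.46 over all 11231 genes measured, of which 51.5% lay above 0. By the 2-fold rule 1 gene was higher and 0 were lower, where 8.77% of all genes were higher and 13.5% lower. By the 0.5 rule 3 were higher and 1 lower, where the shares of all genes were 23.2% and 25.5%. Of the 76 genes well above background on both arrays, 64 lay within their scanner error of 0, 8 lay above it and 4 below. Counts against the scanner error were made for the members only, so they cannot be set beside a share of all genes.

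The core genes of the large subunit had a median log2 difference of 0.03 between denervated and normal soleus, from -0.16 to 0.95, with 23 of 40 above 0. Rpl15, a core protein of the large subunit, had a signal of 717 in denervated soleus, 249 in plantaris and 276 in normal soleus, so that denervated soleus stood apart from both normal muscles. Its difference from normal soleus was 0.95, or 1.93-fold higher in denervated soleus. Its only probe was printed in 10 spots, whose SD was 0.05 log2 units in denervated and 0.07 in normal soleus. This probe was far dimmer than those of all other core genes, the lowest of which read 12300 in normal soleus. How well it reports the main Rpl15 mRNA was not tested. Rpl12, which sits at the base of the stalk, had 73604 in denervated soleus, 29060 in plantaris and 41069 in normal soleus, a difference of 0.41 (1.33-fold) from normal soleus, and its second probe gave 0.37. Rpl7, a protein that contacts the large subunit's rRNA, had 118766 in denervated soleus, 51609 in plantaris and 69121 in normal soleus. It was 0.35 higher in denervated than in normal soleus, and its second probe gave 0.18.

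Other members of the large subunit stayed close to each other. Rpl5 and Rpl11, which form with 5S rRNA the particle that binds Mdm2 when ribosome assembly fails, differed by -0.02 and 0.08 between denervated and normal soleus. Rpl5 had 43567, 22098 and 32714 in denervated soleus, plantaris and normal soleus, and Rpl11 had 141089, 79139 and 99045 in the same order. Rpl10, needed for the joining of the subunits, differed by 0.10, with signals of 186439, 108521 and 128592. Rpl41, the smallest ribosomal protein, had 474345 in denervated soleus, 242874 in plantaris and 309526 in normal soleus and differed by 0.19. Each of these differences lay within the scanner error.

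All 3 stalk genes lay below 0 in denervated against normal soleus on this scale, with median centring and with normexp, but above 0 under quantile normalization and loess, and 2 of 3 were above 0 in the authors' deposited values. Rplp1, an acidic stalk protein, had 179428 in denervated soleus, 154175 in plantaris and 165233 in normal soleus, so its signals were closer together than those of most members. Its difference between denervated and normal soleus was -0.31, or 1.24-fold lower in denervated soleus. Rplp2, its partner, had 168040, 111101 and 134973 in denervated soleus, plantaris and normal soleus, a difference of -0.11. Rplp0, the scaffold of the stalk, had 313590, 200914 and 258567 in the same order, a difference of -0.15, and its second probe gave -0.17. The differences of Rplp0 and Rplp2 lay within the scanner error, and that of Rplp1 beyond it. Rplp0 often serves as a reference gene in muscle, and its raw signal on the denervated array exceeded that on the normal soleus array while its scaled level was lower.

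The core genes of the small subunit had a median of -0.02, from -0.33 to 0.51, with 13 of 29 above 0. Rps12, a protein of the subunit's beak region, had 232493 in denervated soleus, 94266 in plantaris and 121348 in normal soleus, and was 0.51 higher (1.42-fold) in denervated than in normal soleus. The probes of Rps12 did not give the same size: its second one gave 0.12, the widest gap among members whose probes exceeded 1000 in signal. Rps2, a protein near the mRNA entry site, was at the other end, with 121183 in denervated soleus, 96982 in plantaris and 113320 in normal soleus. It differed by -0.33 (1.26-fold lower in denervated soleus), and its other 3 probes gave -0.35, -0.28 and -0.16. Rps19, mutated in Diamond-Blackfan anaemia in humans, had 80868 in denervated soleus, 50779 in plantaris and 69853 in normal soleus, a difference of -0.22. Its other probes gave 0.09 and 0.16, so the direction for Rps19 rests on which probe is read. Rps27a, made as a fusion with ubiquitin, differed by -0.18 (104542 in denervated soleus, 63336 in plantaris and 87802 in normal soleus), and Rps6, the target of the S6 kinases, by -0.13.

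Rpl27a and Rpl32 also lay beyond their scanner error in denervated against normal soleus. Rpl27a, a large subunit protein, had 56861 in denervated soleus, 24285 in plantaris and 34469 in normal soleus, a difference of 0.29. Rpl32 had 152398 in denervated soleus, 79861 in plantaris and 97818 in normal soleus, a difference of 0.21. In both, denervated soleus was highest and plantaris lowest before scaling, as for nearly all members. The 64 genes within their error ran from -0.18 (Rps27a) to 0.20 (Rpl13a, a protein that also takes part in translational silencing in human monocytes).

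**Figure D2:**
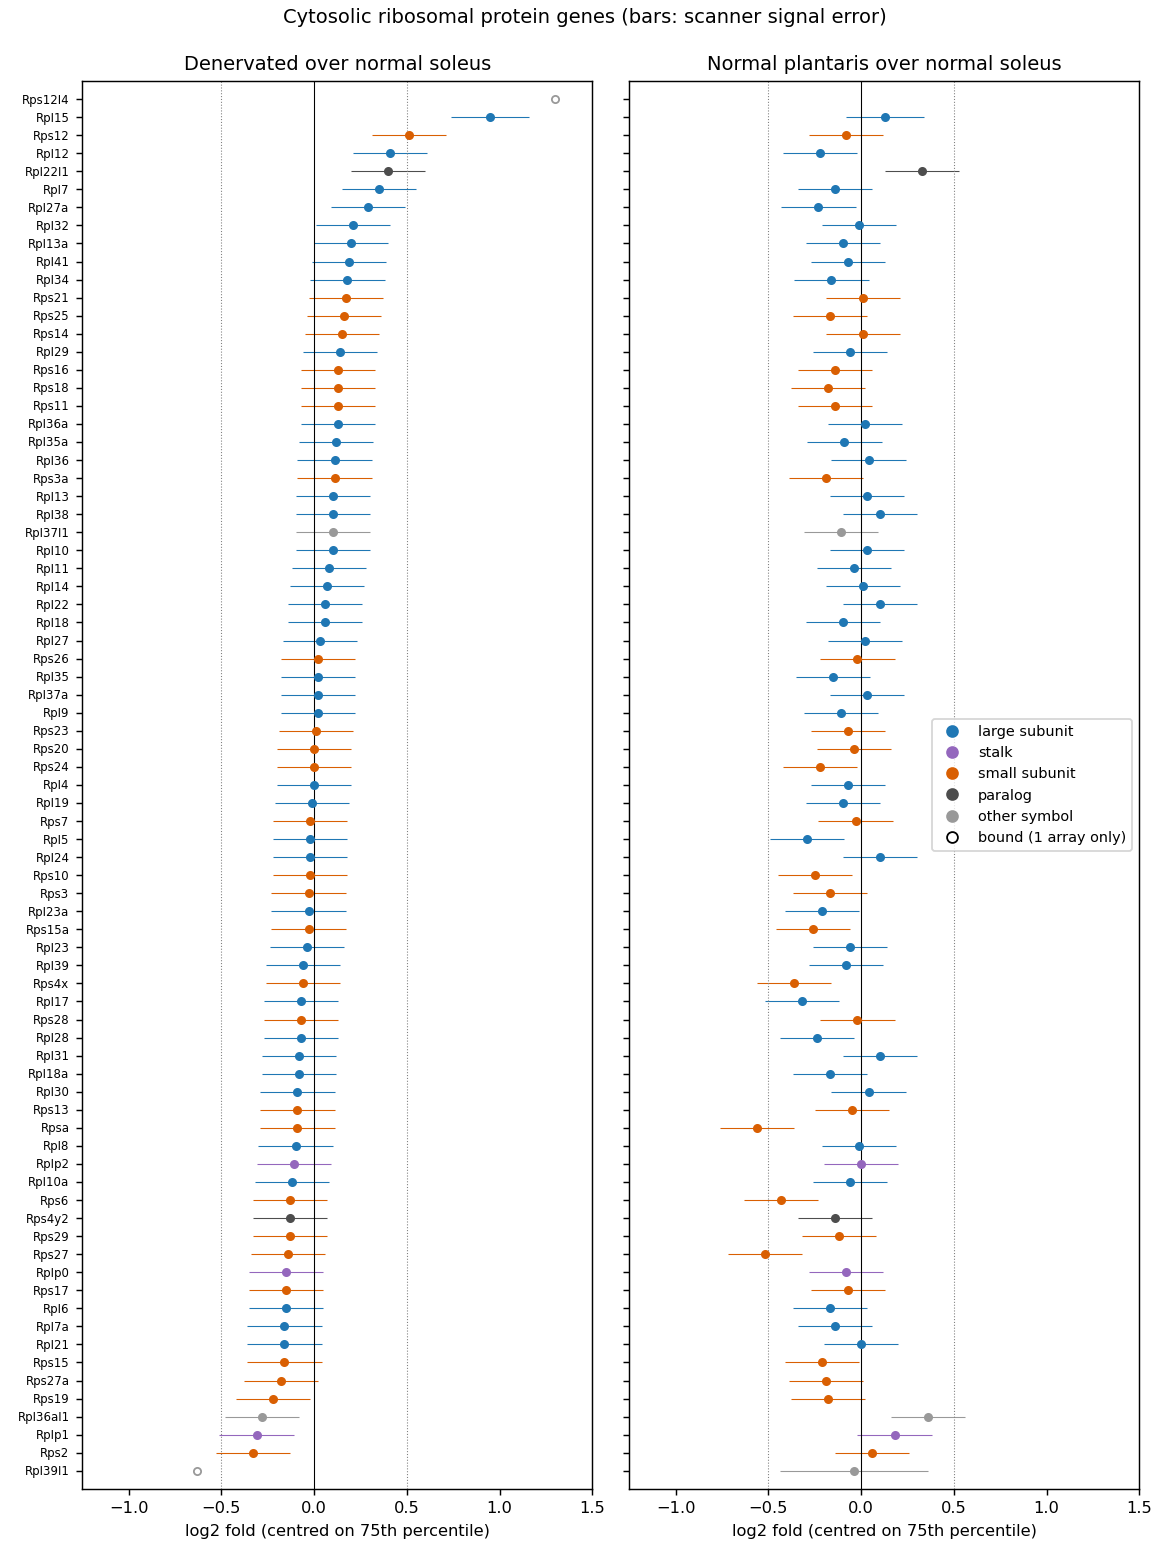
Each row is 1 ribosomal protein gene, ordered by its log2 difference between denervated and normal soleus (left), with normal plantaris over normal soleus in the same order (right); bars are the scanner signal error, open circles are bounds, dotted lines mark 0.5 log2 units either way, all on the 75th percentile scale. On the left, 64 genes lie within their error of 0; on the right the lowest are Rpsa, Rps27 and Rps6.

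Among the paralogs and less usual symbols, some probes were dim and gave only bounds. Rpl22l1, a paralog of Rpl22 that Rpl22 represses in mice, had 26589 in denervated soleus, 15495 in plantaris and 14989 in normal soleus. It was 0.40 higher in denervated soleus and 0.33 higher in plantaris than in normal soleus, and its second probe gave 0.51 and 0.32. Rpl22 itself had 88825, 55703 and 63073 in denervated soleus, plantaris and normal soleus, with differences of 0.06 and 0.10 from normal soleus, both within the scanner error. Rpl36al1 had 17592, 16766 and 15898 in the same order, which after scaling was 0.28 lower (-0.28) in denervated soleus and 0.36 higher in plantaris, each against normal soleus. Rpl36a, the gene it resembles, differed by 0.13 in denervated soleus and 0.02 in plantaris. Another, dim probe of Rpl36a gave -1.15 in denervated against normal soleus, and its repeat spots in normal soleus had an SD of 1.64 log2 units.

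Rps12l4 was the 1 member past the 2-fold rule in denervated soleus. Its signal was 41.7 in denervated soleus, 10 in plantaris and 12.6 in normal soleus. It was well above background on the denervated array only. Against the undetected reading of normal soleus it was 2.46-fold higher in denervated soleus (1.30 in log2), with a scanner error of 0.64 log2 units. Under normexp background correction this difference was 0.03, which leaves no member past the 2-fold rule. Rpl39l1, whose human and mouse counterpart is a testis-enriched paralog of Rpl39, had 24.9, 22.9 and 28.6 in denervated soleus, plantaris and normal soleus. It was well above background in both normal muscles only. After scaling, its undetected reading in denervated soleus was 1.55-fold below that in normal soleus, with a scanner error of 0.44 log2 units. Both probes read near the detection limit. How far labelled RNA of the related genes Rps12 and Rpl39 binds them was not tested. Rpl39 itself differed by -0.06, and Rps4x and Rps4y2, a pair of similar genes, by -0.06 and -0.13. A second, dimmer probe of Rps4y2 gave 0.43.

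Most ribosomal protein mRNAs lay slightly lower in plantaris than in normal soleus, by less than the scanner error of a single gene. The median over 77 genes was -0.08, with quartiles at -0.17 and 0.00. Above 0 lay 19 of the 77 (33 with median centring and 3 under quantile normalization), against a median of 0.02 over all 10982 genes measured, of which 52.3% lay above 0. By the 2-fold rule 0 members were higher or lower, where 5.73% of all genes were higher and 6.15% lower. By the 0.5 rule 0 were higher and 2 lower, where the shares were 16.2% and 15.5%. Of the 77 genes, 60 lay within their scanner error of 0, 2 above it and 15 below. For these counts, too, no share of all genes was computed.

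The small subunit held the lowest values in plantaris. Its core genes had a median of -0.17 with 3 of 29 above 0. The core genes of the large subunit had a median of -0.07 with 13 of 40 above 0. The gap between these medians was 0.10 on this scale. Median centring and the authors' values shift each array by a constant and cannot change the gap. It was 0.07 under quantile normalization, 0.08 under loess and 0.10 under normexp, which are described in the next paragraphs. Rpsa, the protein also known as the laminin receptor, had 20355 in plantaris and 36524 in normal soleus, with 46314 in denervated soleus. It was 1.47-fold lower in plantaris than in normal soleus (-0.56), while its second probe gave -0.11. Rps27, a zinc-finger protein of the subunit, had 56262 in plantaris and 97764 in normal soleus, with 119386 in denervated soleus. It was 1.43-fold lower in plantaris (-0.52), and its second probe gave -0.50. Rps6 had 40382 in plantaris and 66124 in normal soleus, with 81660 in denervated soleus, a difference of -0.43, and its second probe gave -0.37.

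Rps4x followed with 16232 in plantaris and 25366 in normal soleus, a difference of -0.36. Rpl17, at the rim of the peptide exit tunnel, had 19832 in plantaris and 29902 in normal soleus, a difference of -0.32. On the other side, after Rpl36al1 and Rpl22l1, Rplp1 was highest in plantaris at 0.18, Rpl15 at 0.13 and Rpl24, which forms a bridge between the subunits, at 0.10, with 201774 in plantaris and 227775 in normal soleus. These last 3 lay within the scanner error. Rpl5 was lower in plantaris by more than its error (-0.29), whereas Rpl11 (-0.04), Rpl10 (0.03), Rps27a (-0.19), Rplp0 (-0.08) and Rplp2 (0.00) lay within theirs.

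In all, 9 of the 29 core genes of the small subunit and 6 of the 40 of the large subunit lay below 0 in plantaris by more than their scanner error. On the small subunit these included Rpsa, Rps27, Rps6 and Rps4x, with Rps15a (-0.26), Rps10 (-0.25), Rps24 (-0.22) and Rps15 (-0.21). On the large subunit they were Rpl17 and Rpl5, with Rpl28 (-0.24), Rpl27a (-0.23), Rpl12 (-0.22) and Rpl23a (-0.21). The difference between the subunits was not tested, and several of these values are no more than 0.06 beyond the error. The 60 genes within their error ran from -0.19 to 0.18.

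Between denervated soleus and normal plantaris the median over 78 genes was 0.09, and 0.02 to 0.89 over the 6 scalings. Above 0 lay 57 genes, where 50.6% of all 11314 genes did. By the 0.5 rule 5 genes were higher in denervated soleus than in plantaris and 2 lower, where the shares of all genes were 27.3% and 30.0%. By the 2-fold rule 1 was higher, Rps12l4, and 0 were lower, where the shares were 12.0% and 16.8%. Among genes well above background on both arrays, Rpl15 (0.82), Rpl12 (0.63), Rps12 (0.59) and Rpl27a (0.52) were highest in denervated soleus and Rpl36al1 lowest (-0.64). This comparison shares its arrays with the other 2 and adds no new measurement.

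The members differed little among themselves. Over genes well above background on both arrays, the SD between members was 0.19 log2 units for denervated over normal soleus and 0.15 for plantaris over normal soleus. Part of that spread is between probes of 1 gene: for the 45 members with several probes over 1000 in signal, the pooled SD between probes of a gene was 0.11, beside an SD of 0.14 between gene means, for denervated over normal soleus, and 0.08 beside 0.13 for plantaris. Repeat spots of a probe had a median SD of 0.0448 log2 units in denervated soleus, 0.039 in plantaris and 0.0261 in normal soleus. Genes with and without the pyrimidine run at the annotated start did not separate: the median for denervated over normal soleus was 0.02 over 23 genes with it, from -0.31 to 0.18, and -0.02 over 38 without it, from -0.33 to 0.51.

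Other genes as bright as the ribosomal proteins were mostly lower in denervated soleus on this scale. Among the 356 other genes with a mean signal between 18364 and 168400, the 10th and 90th percentiles of the members, the median log2 difference of denervated over normal soleus was -0.61. Of these genes 37.6% were at least 2-fold lower and 3.37% at least 2-fold higher. Under quantile normalization and loess, which act on the trend with brightness, their median was -0.17 and -0.18, and 87 and 81 were at least 2-fold lower, where 134 were on the 75th percentile scale. Along brightness, the median of other genes was 0.09 at a log2 signal of 8 to 9, -0.37 at 14 to 15, -0.90 at 16 to 17 and -1.07 at 17 to 18. The members' median was -0.06 at 14 to 15, 0.02 at 16 to 17 and -0.02 at 17 to 18, so the gap was wider at 17 to 18 than at 14 to 15. Above 18 lay only 9 other genes, with a median of -0.51, and 1 member at 0.19. In plantaris against normal soleus the 356 genes had a median of 0.11, and the members' median lay below that of the other genes at each step of 1 log2 unit from 14 to 18 (-0.07 against 0.17 at 16 to 17).

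**Figure D3:**
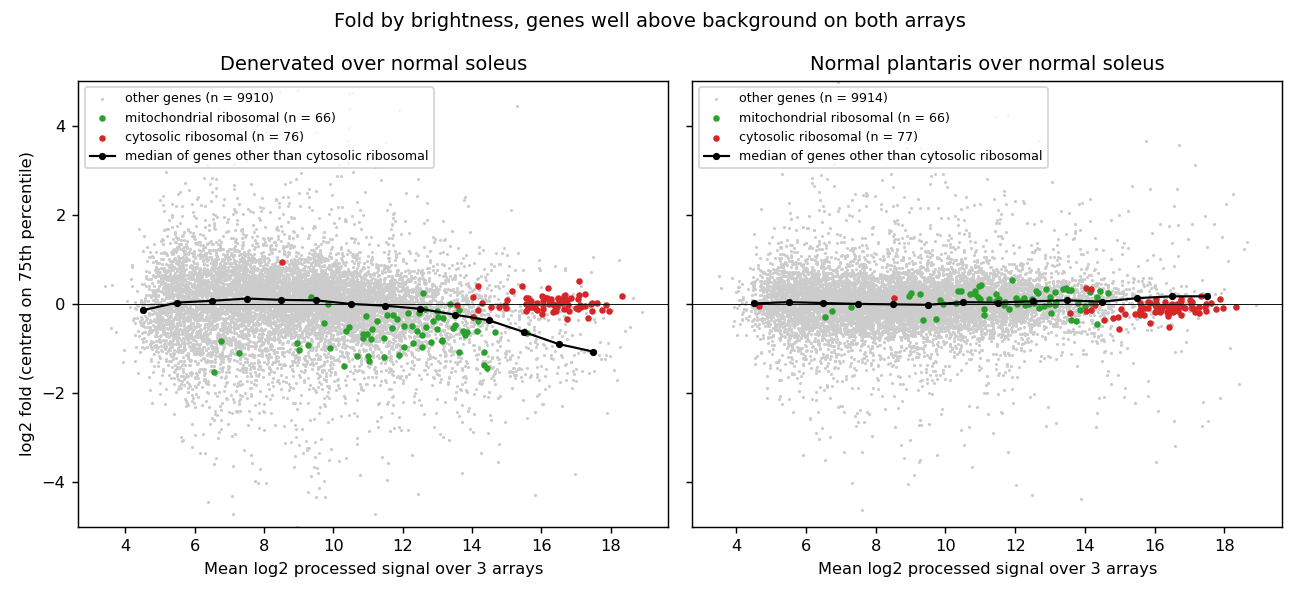
Log2 difference (vertical) against the mean log2 processed signal over the 3 arrays (horizontal) for genes well above background on both arrays: denervated over normal soleus (left) and normal plantaris over normal soleus (right). Red points are cytosolic and green points mitochondrial ribosomal protein genes, and the black line is the median of other genes per log2 unit, which falls to -1.07 at a log2 signal of 17 to 18 on the left (a step with under 20 genes is not drawn), where the red points have a median of -0.02; 12 genes on the left and 7 on the right lie outside the axis of 5 units either way.

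This trend makes the level of the whole family depend on the scaling. Under cyclic loess, which removes a trend of the difference with brightness, the median of the members was 0.46 in denervated over normal soleus, and under quantile normalization, which gives all arrays 1 distribution, it was 0.56, with 76 and 77 members above 0. It was -0.01 with median centring, 0.02 with normexp background correction and 0.24 in the authors' deposited values, where the median of all genes was 0.27. Relative to the median of all genes, the members lay at -0.03, -0.02 and -0.03 under the 75th percentile, median centring and the authors' values. These differ only by a constant per array, so their near-equal values are not independent. The members lay at 0.11 under normexp, at 0.43 under loess and at 0.47 under quantile normalization. No direction for the family in denervated soleus is therefore given here. Whether the loss of signal among other bright genes belongs to the muscle or to the array was not tested.

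In plantaris the family's median kept 1 sign over these 6 scalings, from -0.37 under quantile normalization to -0.02 under median centring. The ends of the order were kept in part. Of the 5 highest and 5 lowest members in denervated over normal soleus, 4 and 3 were shared under both quantile normalization and loess; in plantaris 3 and 2 were shared under quantile normalization and 4 and 5 under loess. Relative to the members' own median, median centring and the authors' values must repeat the percentile scaling, since they shift each array by a constant. Only quantile normalization, loess and normexp could therefore widen the ranges below. On this measure, Rps12 lay between 0.50 and 0.64 in denervated over normal soleus over the 6 scalings. Rpl12 lay between 0.35 and 0.41, Rpl7 between 0.35 and 0.39, Rps2 between -0.37 and -0.29 and Rplp1 between -0.39 and -0.22. Rpl15, a dim probe, ranged from 0.38 to 0.95 and Rpl22l1 from 0.19 to 0.40. In plantaris, Rps27 lay between -0.45 and -0.43, Rpsa between -0.48 and -0.33, Rps6 between -0.39 and -0.20, Rpl22l1 between 0.41 and 0.56 and Rpl36al1 between 0.44 and 0.60.

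**Figure D4:**
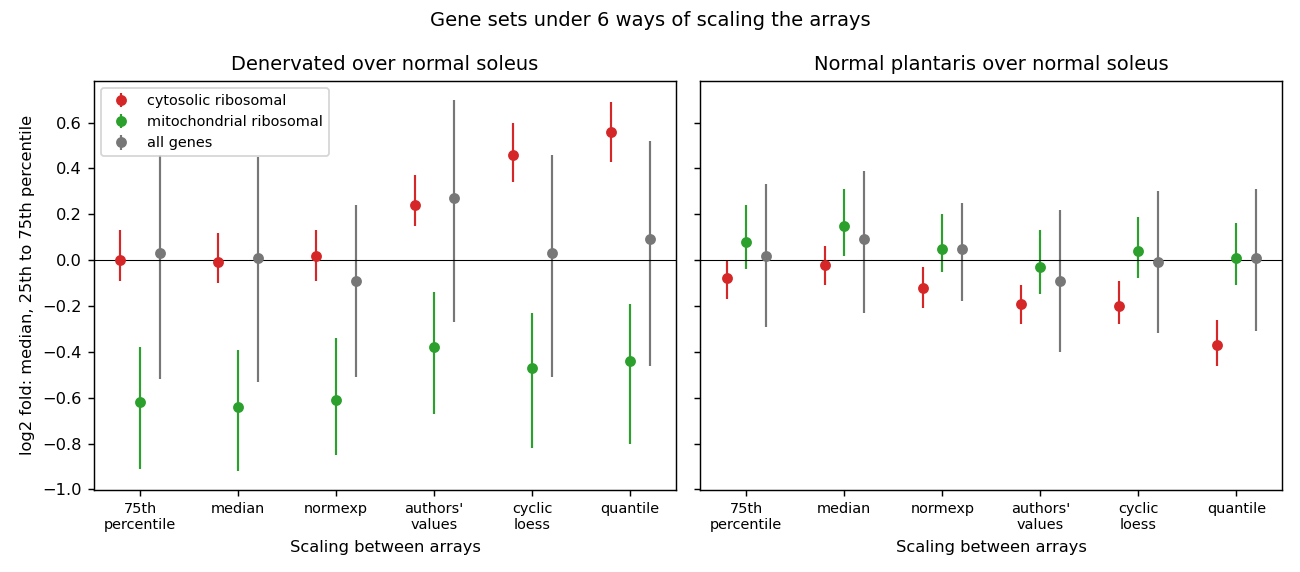
Median and 25th to 75th percentile of the log2 difference (vertical) under 6 ways of scaling the arrays (horizontal), for denervated over normal soleus (left) and normal plantaris over normal soleus (right). The cytosolic ribosomal proteins (red) move between -0.01 and 0.56 on the left, while the mitochondrial ribosomal proteins (green) stay between -0.64 and -0.38.

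The ribosomal proteins of the mitochondrion, which translate the mitochondrial genome, behaved otherwise. Of 66 genes, 45 were at least 0.5 log2 units lower in denervated than in normal soleus and 0 higher, where 25.5% and 23.2% of all genes were. At least 2-fold lower were 13 of the 66, where 13.5% of all genes were. The mitochondrial median was -0.62. It lay between -0.64 and -0.38 over the 6 scalings, below that of the cytosolic family under each. Median centring and the authors' values could not change that order, as they shift each array by a constant. Quantile normalization, loess and normexp could, and did not. In plantaris against normal soleus the mitochondrial median was 0.08, and between -0.03 and 0.15 over the scalings. Above 0 lay 45 of 66, where 52.3% of all genes did. The proteasome subunits, another large complex, had a median of -0.02 in denervated soleus over 36 genes (0.22 in the authors' values) and of 0.15 in plantaris over 37 genes, each against normal soleus.

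Of the ribosomal proteins that the naming rule leaves out, Fau, made as a fusion with a ubiquitin-like protein, and Rack1, a scaffold on the small subunit, had differences of 0.09 and -0.02 between denervated and normal soleus. Both lay within the scanner error. Rpl3 (52237 in denervated soleus, 9804 in plantaris and 16688 in normal soleus) was 1.22 higher, and Rpl3l, its muscle-specific paralog (16545, 31397 and 27884), 1.18 lower (-1.18), in denervated than in normal soleus. Both differences exceeded those of all 76 members well above background on both arrays.

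The elongation factors and other genes with TOP mRNAs had a median of 0.15 in denervated over normal soleus, with 4 of 18 at least 0.5 higher and 1 lower, and of -0.16 in plantaris over normal soleus, with 0 higher and 2 lower. Of all genes, 23.2% were at least 0.5 higher and 25.5% lower in denervated soleus, and 16.2% and 15.5% in plantaris. The list's share at least 0.5 higher in denervated soleus was close to that of all genes, and its other shares were below theirs. Both medians of the list kept their sign over the 6 scalings. Eef1a1, the elongation factor that brings aminoacyl-tRNA to the ribosome, had 91910 in denervated soleus, 12408 in plantaris and 31667 in normal soleus, differences of 1.11 and -1.07 from normal soleus. Eef1a2, its muscle paralog, was lower in denervated soleus (-1.10, 22871 in denervated against 36456 in normal soleus). Npm1, a nucleolar chaperone, was 0.64 higher and Nap1l1, a histone chaperone, 0.75 higher in denervated than in normal soleus.

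Initiation factors had a median of -0.18 in denervated over normal soleus, which was 0.07 in the authors' values, 0.02 under quantile normalization and 0.00 under loess, with 0 of 29 at least 0.5 higher and 5 lower, where 23.2% and 25.5% of all genes were. Eif3j, which helps to place mRNA on the small subunit, was lowest at -1.20, followed by Eif2b4, a subunit of the exchange factor of eIF2, at -1.15 and Eif4e, the cap-binding protein, at -0.90. In plantaris against normal soleus their median was 0.19, with 4 of 29 at least 0.5 higher and 0 lower (16.2% and 15.5% of all genes), Eif4a2 (0.65) and Eif3j (0.63) being highest. The genes of ribosome biogenesis had a median of -0.05 over 51 genes in denervated over normal soleus (0.19 in the authors' values). At least 0.5 higher were 2, Noc3l (0.66) and Ncl, or nucleolin (0.59), and 3 were lower, few beside the 23.2% and 25.5% of all genes. Bysl, needed to mature the small subunit, was lowest at -0.91. RNA polymerase I and its factors, which make rRNA, had a median of 0.08 over 17 genes (0.00 to 0.32 over the scalings). Of these, 2 were at least 0.5 higher and 0 lower, against the same shares of all genes. They were Polr1d (0.74) and Taf1a, a bound of 0.53 with a scanner error of 0.63. Taf1a read 28.2 in denervated soleus and 14.6, not well above background, in normal soleus.

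**Figure D5:**
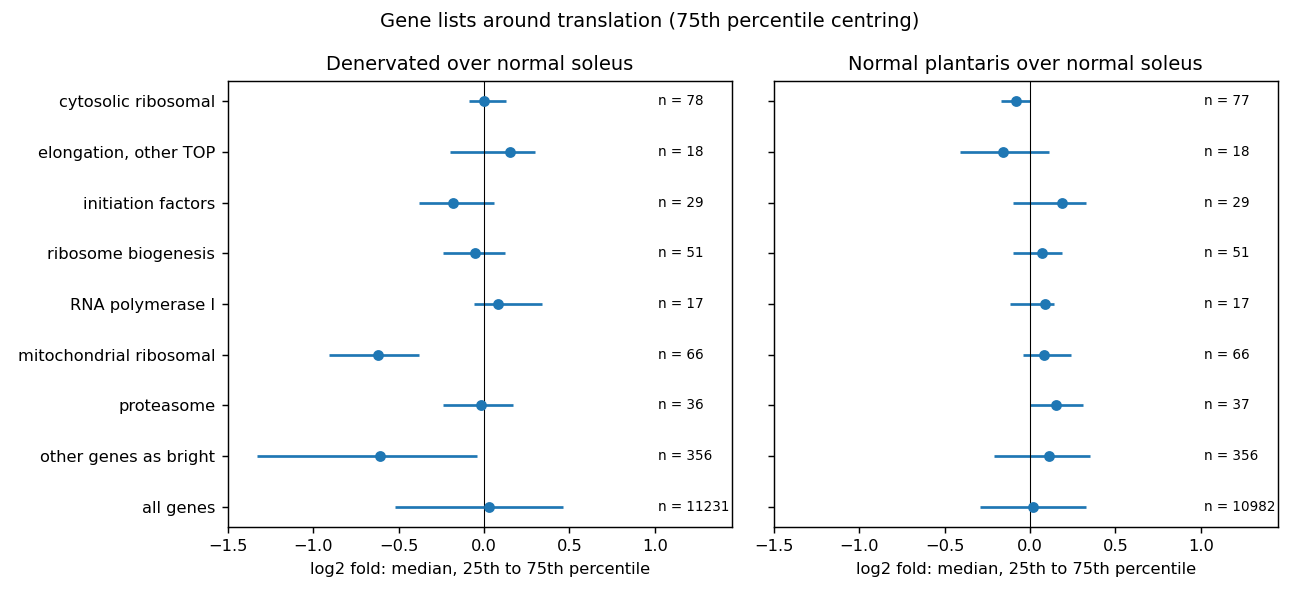
Median (points) and 25th to 75th percentile (bars) of the log2 difference for gene lists around translation, with the number of genes measured at the right: denervated over normal soleus (left) and normal plantaris over normal soleus (right), scaled to the 75th percentile. In denervated soleus the cytosolic ribosomal proteins have a median of 0.00, the mitochondrial ones -0.62 and other genes as bright -0.61.

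Fibre-type genes followed the muscles named in the labels. The summed signal of 7 slow-fibre genes was 1410783 in denervated soleus, 362693 in plantaris and 2364209 in normal soleus, and that of 8 fast-fibre genes 818215, 2828719 and 370095 in the same order. All 9 fibroblast and tendon genes measured were at least 0.5 log2 units higher in denervated than in normal soleus (8 of 9 under quantile normalization, loess and normexp), with sums of 329915 in denervated soleus, 157665 in plantaris and 107633 in normal soleus. Adipocyte genes summed to 92565, 10236 and 21249, with Lep not well above background on any array, and macrophage genes to 66999, 26406 and 46923. These sums are unscaled. After scaling, the median of denervated over normal soleus was 2.54 for the adipocyte list, 0.89 for fibroblast and tendon and 0.37 for macrophage genes, against -0.49 for endothelial, -0.61 for smooth muscle and pericyte and -1.12 for Schwann cell genes. The part of these cell types in the ribosomal protein signal was not tested.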

How the data were processed

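Labelled cRNA of 3 rat muscles was hybridised to one-colour arrays, 1 per group. Per the file headers, the authors scanned each array and extracted it with Agilent Feature Extraction 10.10.1.1. The deposited scanner files hold the processed signal, a linear intensity corrected for background by that software, with flags for spots well above background and for outliers. The value table that the authors deposited also holds linear intensity: each array's processed signal times a constant, 1.41 for denervated soleus, 1.8 for plantaris and 1.6 for normal soleus, whose rule the sources used here do not give.

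From the 58717 non-control spots, outlier-flagged spots were dropped and the repeat spots of a probe averaged in log2. The 75th percentile of log2 signal was then subtracted per array. Of 30367 probes, 18005 carried an accession that RefSeq's GRCr8 gene table names. The probe brightest over the 3 arrays stood for its gene. A gene entered a comparison when at least 50% of its probe's spots were well above background on 1 of its arrays. If on 1 only, the fold is called a bound. It was taken against the dim signal or the lowest detected signal of that array, whichever is higher. Against a dim signal it is a plain ratio to an undetected reading. No spot was saturated. Tools were Python 3.11.15, pandas 2.3.3, numpy 2.4.6, R 4.3.3 and limma 3.58.1, the last for quantile, cyclic loess and normexp (offset 50). Normexp was planned on mean signals and run on median signals, the column in the files. The computation was tested on simulated arrays.

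Alternatives were 5 other scalings or background corrections, the mean over probes, 2 filters and the core genes alone. Genes named are the 5 highest and 5 lowest per comparison among members well above background on both arrays, any member past 2-fold and a fixed set; from each other list, up to 4. Rpl41, Rpl13a, Rps4y2, Rpl39l1 and the genes named only as beyond their scanner error were chosen after their values were seen. Single values of a few genes are not reported here, though counts and medians include them. The members and gene lists were chosen with earlier results of these data known. The number of arrays, 1 per group, limits the precision.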

Additional observations from a re-analysis of the deposited data

How the results depend on the processing

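No paired analysis was possible because each group has 1 array, and no replicate could be left out. The scalings moved the family's level most. For denervated over normal soleus the median of 0.00 became 0.56 under quantile normalization, 0.46 under cyclic loess and 0.24 in the authors' values, members above 0 went to 77, 76 and 74, those at least 0.5 higher to 48, 35 and 7, and those at least 2-fold higher to 2 under each. The median of all genes was 0.09, 0.03 and 0.27 under the same settings. The authors' values shift each array by a constant, so members and other genes move alike there. For denervated over plantaris the median became 0.89, 0.68 and 0.45, members at least 0.5 higher 74, 65 and 33, at least 0.5 lower 1, 1 and 0, and at least 2-fold higher 30, 6 and 2. Here all genes had medians of 0.08, 0.04 and 0.36. For plantaris over normal soleus the median was -0.37 under quantile normalization, members at least 0.5 lower were 13 under quantile normalization, 0 under median centring and 1 with the mean over probes, and members above 0 were 3, 5, 33 and 4 under quantile normalization, loess, median centring and the authors' values. Under the last-named settings, in the same order, all genes had medians of 0.01, -0.01, 0.09 and -0.09. Shares of all genes past each limit under these settings are not reported here. Members at least 2-fold higher in denervated soleus fell to 0 against either normal muscle under normexp, with only genes detected on both arrays and with core genes only. Members at least 0.5 lower in denervated than in normal soleus were 0 in the authors' values and under the last 2 of these settings. Those at least 0.5 lower in denervated soleus than in plantaris were then 1 with detection on both arrays and 0 with core genes. Relative to other genes in the members' brightness range, a setting chosen after seeing the data, the median was 0.61 for denervated over normal soleus and 0.86 for denervated over plantaris. Scaling, the probe's background and the smaller set of genes are these settings' own construction; why bright genes other than the members were lower in denervated soleus was not tested. In all, 45 of 165 values for the family moved by more than their limit and 120 did not, and 0 changed sign in a called value.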
